A study of Homo sapiens with 6 samples.

Results

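Interferon-stimulated genes (ISGs) are the genes that cells switch on when interferon binds its receptors. The 39 genes described here were chosen by name as widely used members of that programme. Each of the 39 symbols matched 1 row among the 60589 genes of the deposited table, and no level was required. RNA came, at day 3, from the SNU449 line, which derives from a human liver cancer (hepatocellular carcinoma). These are bulk samples, in which fewer cells of a type and less RNA per cell cannot be told apart. The tested cells had received an siRNA against MAD2L1 (siMAD2L1, 3 libraries) and the controls a control siRNA (siControl, 3 libraries). Both groups were treated with an siRNA, and untransfected cells were not analysed here. The labels do not say whether the libraries of a group came from separate cultures, so p-values cover only how these libraries varied, which may be technical. The series addresses the function of MAD2L1, a spindle checkpoint protein, in liver cancer cells.

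Type I and type III interferons bind receptors that carry the kinases JAK1 and TYK2. These kinases phosphorylate STAT proteins, which join IRF9 and bind the interferon-stimulated response element (ISRE) in the promoters of ISGs. Interferon gamma acts through STAT pairs that bind the gamma-activated sequence (GAS). Many ISG products bind viral RNA, block viral entry or feed back on the pathway, and a part of the programme is also kept at a low level in cells without added interferon.

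The promoters of the 4 genes that passed the test below are shown first, because they carry different elements, followed by those of a gene just under the filter on TPM and of a gene listed at 0 in nearly all libraries. Each line gives 100 bases upstream of the RefSeq start (GRCh38.p14), 5′ to 3′ on the strand of the gene. For IRF1 and IFIT1 they run from -150 to -51 relative to the start, and for the other genes from -100 to -1. Capitals mark the ISRE core, which is GAAA, any 2 bases and GAAA again (on the other strand TTTC, 2 bases and TTTC), and the GAS core, which is TTC, any 3 bases and GAA.
IFITM3 (chr11:320861-320960, minus strand): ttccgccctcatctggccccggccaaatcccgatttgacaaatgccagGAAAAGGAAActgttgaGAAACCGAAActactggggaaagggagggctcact
ISG20 (chr15:88638916-88639015, plus strand): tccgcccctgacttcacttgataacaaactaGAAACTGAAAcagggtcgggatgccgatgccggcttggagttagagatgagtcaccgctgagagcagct
IFI35 (chr17:43006684-43006783, plus strand): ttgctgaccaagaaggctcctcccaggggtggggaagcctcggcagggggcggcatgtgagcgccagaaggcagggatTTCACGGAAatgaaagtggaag
IRF1 (chr5:132490824-132490923, minus strand): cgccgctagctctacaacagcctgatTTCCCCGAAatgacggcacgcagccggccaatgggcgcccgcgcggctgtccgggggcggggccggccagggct
IFIT1 (chr10:89392473-89392572, plus strand): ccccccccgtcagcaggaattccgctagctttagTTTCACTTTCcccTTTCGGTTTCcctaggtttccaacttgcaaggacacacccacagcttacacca
IFI44L (chr1:78620348-78620447, plus strand): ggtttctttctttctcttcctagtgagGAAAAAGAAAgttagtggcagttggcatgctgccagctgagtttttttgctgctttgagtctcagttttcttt

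RefSeq promoter windows, from 250 bases before to 50 after the start, were matched for 30 of the 39 genes. An ISRE core on either strand lay in 20 of these 30 windows (66.7%, exact Clopper-Pearson 95% interval 47.2 to 82.7%), against 1255 of all 35116 promoters (3.57%). The GAS core, whose letters read the same on both strands, lay in 9 of the 30 (30.0%, 14.7 to 49.4%), against 2689 of all promoters (7.66%). In IFITM1, BST2 and IFI27 a GAS core overlapped an ISRE core. The ISRE was found at both low and higher levels of RNA, with wide intervals: 7 of 11 promoters of genes with a mean TPM under 1 held it (63.6%, 30.8 to 89.1%), against 13 of 19 promoters of the genes above it (68.4%, 43.5 to 87.4%). Of the 4 genes past the test, IFITM3 and ISG20 held ISRE cores and no GAS core, while IFI35 and IRF1 held 1 GAS core each and no ISRE core in their windows. A match of letters is a description of the window and not of factor binding.

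The targeted transcript was checked first. MAD2L1 measured 4.47, 0.795 and 2.40 TPM in siMAD2L1 replicates 1, 2 and 3, against 14.5, 13.7 and 13.9 TPM in the siControl libraries (log2 fold change -2.22, SE 0.357, limma adjusted p = 0.0105; exact two-sided permutation p = 0.1, the smallest that 3 against 3 allows). With siControl replicate 1, 2 or 3 left out, MAD2L1 no longer passed (adjusted p = 0.0597, 0.0547 and 0.0572). MAD2L2 stands in place of MAD2L1 in the treatment field of siMAD2L1 replicate 2 and measured 154 TPM in that library, against 138 to 150 TPM in siControl. TPM (length-scaled transcript abundance) has the same total in each library, so the depth behind a value is unknown. Mitochondrially encoded transcripts took 9.21 to 10.9% of the TPM in siMAD2L1 and 15.2 to 15.3% in siControl, and their part in the results below was tested only by rescaling. Correlations of log2(TPM + 1) between libraries were 0.969 to 0.980 within siMAD2L1, 0.977 to 0.980 within siControl and 0.959 to 0.970 across the groups. The summed TPM of 10 hepatocyte markers was 7.99 to 13.8 in siMAD2L1 and 17.8 to 23.6 in siControl, with TF and FGB called lower; their part in the results below was not tested. The hepatocyte markers ALB, APOA1, APOB and TTR stood at no more than 0.451 TPM in any library, and CYP3A4 and HNF4A at no more than 0.699 TPM. Over the 6 libraries TF measured 3.48 to 10.9 TPM and FGB 1.91 to 8.70 TPM. AFP measured 0.645 to 2.95 TPM and SERPINA1 0.898 to 2.34 TPM. The epithelial keratin KRT18 measured 122 to 138 TPM in siMAD2L1 and 189 to 200.03 TPM in siControl. The epithelial genes KRT19, CDH1 and EPCAM were low, at 0.713 to 1.43, 0.429 to 1.47 and 0 to 0.433 TPM. KRT18 and KRT8 were both called lower (limma adjusted p = 0.00661 and 0.0101). Vimentin (VIM) was higher and the collagen gene COL1A1 lower in all siMAD2L1 libraries, at log2 fold changes of 0.19 and -0.44, and neither passed (limma adjusted p = 0.114 and 0.0566). The mesenchymal markers VIM and CDH2 measured 9128 to 11152 TPM and 28.1 to 36.4 TPM over the 6 libraries. The summed TPM of 4 fibroblast markers was 90.6 to 106 in siMAD2L1 and 116 to 155 in siControl. COL1A1 made up nearly all of it, at 90.4 to 106 TPM in siMAD2L1 and 116 to 154 TPM in siControl. LUM was listed at 0 throughout, and DCN and PDGFRB stood at no more than 0.041 and 0.979 TPM. The part of these markers in the results below was not tested. Of 6 leukocyte markers, CD3E was listed at 0 throughout and PTPRC stood at 0.06 TPM or less; CD68, a lysosomal protein gene, measured 125 to 144 TPM in siMAD2L1 and 63.1 to 69.8 TPM in siControl. It was called higher (limma adjusted p = 0.00114) and made up most of the summed TPM of the list, 128 to 149 in siMAD2L1 and 69.4 to 75.8 in siControl. CD14, the other leukocyte marker tested, measured 2.95, 2.90 and 4.43 TPM in siMAD2L1, against 11.3, 5.24 and 6.01 TPM in siControl, lower without overlap, and did not pass (log2 fold change -0.89, limma adjusted p = 0.0851).

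The ISGs spanned a wide range of levels. TPM is scaled to transcript length, so levels can be set beside each other. IFITM3, IFITM2 and IFITM1 led, followed by IFI35, ISG20, IRF9, ISG15 and IRF1. Of the 39, 26 had a mean of at least 1 TPM and entered the test, and 13 did not. None of the 39 was listed at 0 in all 6 libraries. Near silent were RSAD2, which encodes the antiviral enzyme viperin, with at most 0.026 TPM, its genomic neighbour CMPK2 with at most 0.064 TPM, and MX2 with at most 0.115 TPM. IFI44L was listed at 0 in all libraries but siControl replicate 3, at 0.229 TPM. The chemokine genes CXCL10 and CXCL11, whose products draw T cells, were listed at 0 in all siControl libraries. CXCL10 measured 0.149, 0 and 0.232 TPM in siMAD2L1 and CXCL11 0, 0 and 0.115 TPM; no fold is given against values of 0. XAF1 was above 0 in 1 library of each group. BST2, which encodes tetherin, DDX60, IFI44 and OASL measured between 0.115 and 0.734 TPM in every library.

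HERC5 and IFIT1 lay just under the filter. HERC5, the ligase that attaches ISG15 to proteins, measured 1.05, 0.386 and 0.802 TPM in siMAD2L1, against 1.29, 0.998 and 1.03 TPM in siControl, and the groups overlapped. IFIT1, whose product binds RNA that lacks a host cap, measured 0.756, 0.439 and 0.417 TPM in siMAD2L1, against 1.36, 1.11 and 1.18 TPM in siControl. All 3 siMAD2L1 libraries were below the siControl libraries, and IFIT1 was not tested. Just inside the filter were OAS2, at 1.75, 1.498 and 1.488 TPM in siMAD2L1 and 2.05, 1.90 and 1.38 TPM in siControl, and IFIH1, described below.

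**Figure D1:**
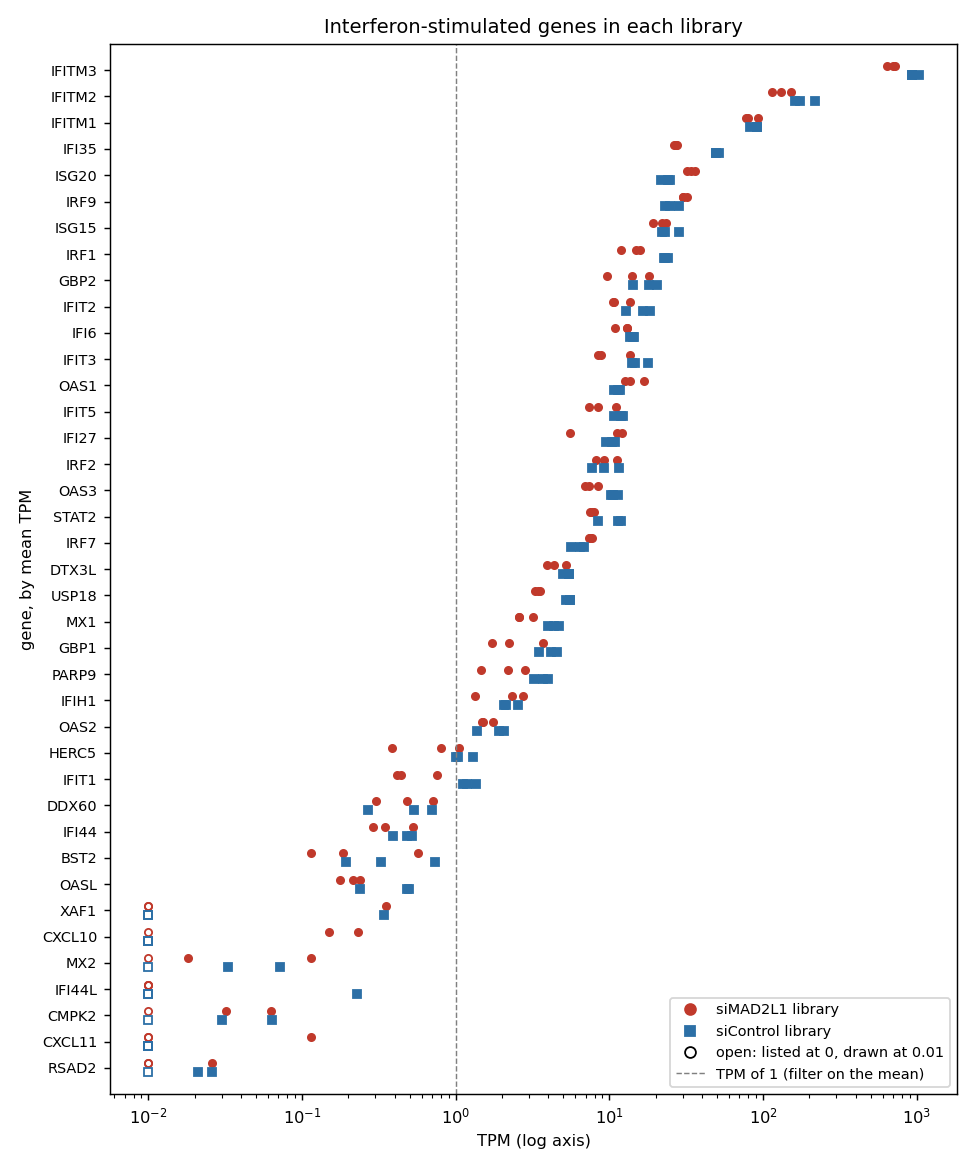
TPM of the 39 interferon-stimulated genes on a log axis, ordered by their mean, with 1 circle for each siMAD2L1 library and 1 square for each siControl library; open symbols are values listed at 0. IFITM3 stands highest, at 635 to 726 TPM in siMAD2L1 and 932 to 1033 TPM in siControl, and 13 genes have means left of the dashed line at 1 TPM.

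Among the 26 ISGs tested, IFI35, IRF1 and IFITM3 fell and ISG20 rose in siMAD2L1 cells, and the other 22 did not pass. The test was limma on log2(TPM + 1) over the 14790 genes whose mean TPM reached 1, with a call at a Benjamini-Hochberg adjusted p under 0.05. Over all genes tested 9.78% were called, 3.55% higher and 6.23% lower. The 4 ISGs called are 15.4% of those tested, 1 higher and 3 lower. Among all calls 63.7% were lower; that share was 52.5% with upper-quartile scaling, 50.5% with quantile normalization and 43.9% after a trend with transcript length was taken out, and in each of these the ISG calls were again 1 higher and 3 lower. Over the 26 ISGs the median log2 fold change was -0.35, against -0.08 over all genes tested, and 80.8% had a fold change below 0, against 59.9%. Groups that did not overlap were found at 15 of the 26 (57.7%), 4 higher and 11 lower in siMAD2L1, against 32.8% of all genes tested, 11.3% higher and 21.5% lower.

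IFI35, a leucine zipper protein that pairs with NMI, had the largest fold change of the 26. It lies on chromosome 17 from 43006725 to 43014456 on the plus strand (GRCh38), and no other GENCODE gene span overlaps it. It measured 26.4, 27.6 and 27.0 TPM in siMAD2L1, against 49.1, 49.5 and 51.6 TPM in siControl. The libraries of each group lay close together, and all 3 siMAD2L1 libraries were far below the siControl libraries. The means were 27.0 ± 0.610 TPM in siMAD2L1 and 50.1 ± 1.37 TPM in siControl (SD, n = 3 each), so siMAD2L1 stood at 53.8% of siControl (log2 fold change -0.87, SE 0.0830, limma adjusted p = 0.00172). IFI35 kept its call in all 19 alternatives run, those that left out a library included.

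IRF1, a transcription factor that interferon gamma induces through the GAS shown above, occupies bases 132481609 to 132490798 of chromosome 5, minus strand. It measured 15.7, 11.8 and 14.9 TPM in siMAD2L1, against 24.2, 22.7 and 22.8 TPM in siControl. The groups did not overlap, and siMAD2L1 replicate 2 was the lowest library. IRF1 fell by 0.69 on the log2 scale (SE 0.129, limma adjusted p = 0.0176). IRF1 no longer passed once siMAD2L1 replicate 3 was left out (adjusted p = 0.0515), nor once siControl replicate 1, 2 or 3 was (0.0907, 0.0667 and 0.0766), at log2 fold changes between -0.66 and -0.73. GENCODE places C5orf56 and AC116366.3 on the other strand, overlapping IRF1. How strand was treated in counting is not stated in those sources, so reads of overlapping genes cannot be told apart.

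IFITM3, a membrane protein that keeps viruses from fusing in endosomes, was the most abundant ISG. It occupies bases 319669 to 327537 of chromosome 11, minus strand. It measured 635, 726 and 702 TPM in siMAD2L1, against 938, 1033 and 932 TPM in siControl. All siMAD2L1 libraries were lower than all siControl libraries. IFITM3 fell by 0.49 on the log2 scale (SE 0.0776, limma adjusted p = 0.00971). It no longer passed once siControl replicate 1 was left out (adjusted p = 0.0564) and in limma without an intensity trend (0.0503). Several noncoding genes, among them the antisense AC136475.1, overlap its span.

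ISG20, an exonuclease that degrades single-stranded RNA, was the ISG called higher. It occupies bases 88636153 to 88656483 of chromosome 15, plus strand. It measured 36.2, 34.0 and 31.9 TPM in siMAD2L1, against 24.8, 21.6 and 24.0 TPM in siControl. All 3 siMAD2L1 libraries were above the siControl libraries, and siMAD2L1 replicate 1 was the highest. ISG20 was higher by 0.52 on the log2 scale (SE 0.101, limma adjusted p = 0.0206). It passed without siMAD2L1 replicate 1 and lost its call without any other library, with adjusted p of 0.0529 to 0.0791 and log2 fold changes of 0.46 to 0.56.

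**Figure D2:**
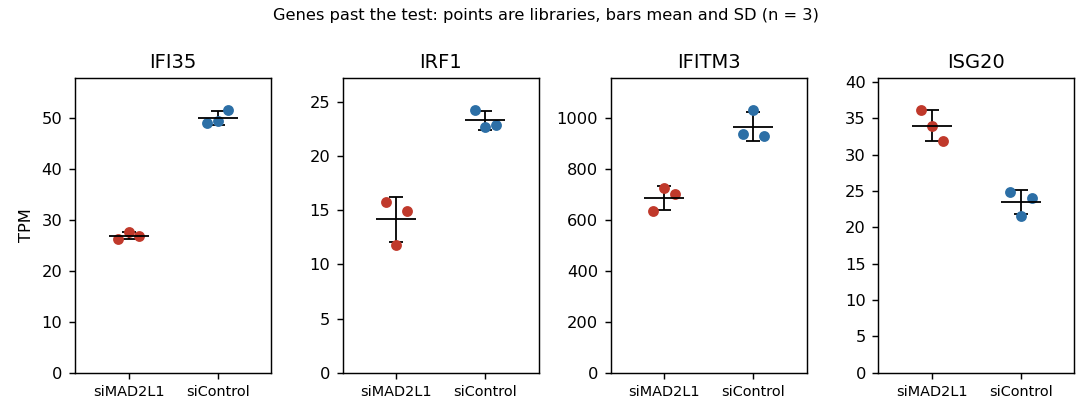
TPM of IFI35, IRF1, IFITM3 and ISG20 on linear axes from 0, with siMAD2L1 left of siControl; points are libraries and bars the mean and SD (n = 3). IFI35 averages 27.0 TPM in siMAD2L1 and 50.1 TPM in siControl, and ISG20 is the gene of the 4 with the higher siMAD2L1 values.

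The other interferon-induced transmembrane genes sit beside IFITM3 on chromosome 11. IFITM2 measured 114, 152 and 132 TPM in siMAD2L1, against 162, 216 and 173 TPM in siControl. The groups did not overlap, but it missed the threshold (log2 fold change -0.47, SE 0.139, limma adjusted p = 0.0743), and passed when TPM was rescaled over protein-coding genes (0.0478) and with library weights (0.0192). IFITM1 measured 76.9, 79.9 and 92.2 TPM in siMAD2L1, against 90.7, 82.0 and 91.0 TPM in siControl, with overlapping groups (log2 fold change -0.08, 95% interval -0.30 to 0.14). These paralogues share sequence: of the 50-base stretches in the longest GENCODE coding transcript, 42.3% of those of IFITM1, 15.8% of those of IFITM2 and 20.3% of those of IFITM3 also occur in transcripts of other genes. Reads could be split between them, and their separate values are uncertain.

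None of the 3 IFIT genes tested passed. Their products bind foreign RNA, and the IFIT genes lie together on chromosome 10, each fold change being below 0. IFIT3 measured 13.7, 8.42 and 8.78 TPM in siMAD2L1, against 14.0, 17.8 and 14.7 TPM in siControl. The groups did not overlap, though siMAD2L1 replicate 1 lay next to the lowest siControl library (log2 fold change -0.57, SE 0.194, limma adjusted p = 0.108). IFIT2 measured 13.6, 10.6 and 10.8 TPM in siMAD2L1, against 18.5, 12.8 and 16.5 TPM in siControl (log2 fold change -0.41, SE 0.165, limma adjusted p = 0.160). IFIT5 had a log2 fold change of -0.35 (adjusted p = 0.213). In both of these the groups overlapped through siMAD2L1 replicate 1. Without that library IFIT3 and IFIT5 passed (adjusted p = 0.0128 and 0.0375).

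The oligoadenylate synthetases, which sense double-stranded RNA and activate RNase L, did not share a direction. OAS1 measured 16.7, 13.7 and 12.6 TPM in siMAD2L1, against 10.7, 11.7 and 11.3 TPM in siControl (log2 fold change 0.32, SE 0.135, limma adjusted p = 0.185). OAS3 measured 6.94, 7.31 and 8.47 TPM in siMAD2L1, against 10.5, 11.5 and 10.3 TPM in siControl (log2 fold change -0.46, SE 0.133, limma adjusted p = 0.0695). The groups did not overlap for either gene, higher in siMAD2L1 for OAS1 and lower for OAS3, although the genes are neighbours on chromosome 12. Both overlap the antisense gene AC004551.1. Neither passed. For OAS2, which lies on the far side of OAS3 from OAS1, the groups overlapped (log2 fold change -0.10, 95% interval -0.58 to 0.38).

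The antiviral GTPases also missed the threshold. MX1, which traps viral nucleocapsids, measured 3.197, 2.56 and 2.59 TPM in siMAD2L1, against 4.34, 3.995 and 4.71 TPM in siControl (log2 fold change -0.50, SE 0.170, limma adjusted p = 0.106). Its groups did not overlap. The guanylate-binding protein genes GBP1 and GBP2 had log2 fold changes of -0.56 and -0.35 (adjusted p = 0.185 and 0.381). GBP2, the higher of the pair, measured 18.1, 14.0 and 9.57 TPM in siMAD2L1, against 14.2, 18.1 and 20.5 TPM in siControl, a wide spread in both groups. GBP7 overlaps the span of GBP2 on the same strand. GBP1 passed without siMAD2L1 replicate 1 (adjusted p = 0.0373), and 13.3% of its 50-base stretches occur in other transcripts, mainly those of the pseudogene GBP1P1.

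In the ISG15 system, in which a ubiquitin-like protein is attached to others, ISG15 itself overlapped between groups, at 19.3, 23.5 and 21.9 TPM in siMAD2L1 and 22.1, 23.1 and 28.3 TPM in siControl (log2 fold change -0.17, 95% interval -0.47 to 0.13). USP18, which removes ISG15 and also restrains the type I receptor, measured 3.54, 3.25 and 3.43 TPM in siMAD2L1, against 5.55, 5.24 and 5.51 TPM in siControl. Its libraries lay close together within groups and far apart between them (log2 fold change -0.55, SE 0.148, limma adjusted p = 0.0578). USP18 passed in 5 of 18 alternatives, with adjusted p between 0.00734 and 0.194 over all of them. The copy USP41 shares 23.0% of the 50-base stretches of USP18, so its value is uncertain.

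PARP9 and DTX3L form a complex that modifies histones and viral proteins, and the genes share a promoter region on chromosome 3. Their spans overlap on opposite strands. PARP9 measured 2.81, 2.19 and 1.46 TPM in siMAD2L1, against 3.98, 3.24 and 3.71 TPM in siControl, without overlap (log2 fold change -0.58, SE 0.216, limma adjusted p = 0.137). DTX3L measured 5.19, 3.91 and 4.39 TPM in siMAD2L1, against 4.98, 5.48 and 5.44 TPM in siControl, with siMAD2L1 replicate 1 inside the siControl range (log2 fold change -0.20, adjusted p = 0.463). IFIH1, the sensor MDA5 of long double-stranded RNA, measured 2.32, 1.34 and 2.75 TPM in siMAD2L1, against 2.06, 2.54 and 2.14 TPM in siControl, with overlapping groups (log2 fold change -0.07, 95% interval -0.61 to 0.47). IFI6, a mitochondrial and endoplasmic reticulum protein, measured 10.8, 13.0 and 13.0 TPM in siMAD2L1, against 14.4, 13.6 and 14.2 TPM in siControl, without overlap (log2 fold change -0.19, SE 0.121, limma adjusted p = 0.368). IFI27 had overlapping groups, and siMAD2L1 replicate 1, at 5.54 TPM, was below every other library.

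Among the transcription factors of the list, IRF1 was the only one called. STAT2, a subunit of the factor that binds the ISRE, measured 7.65, 7.93 and 7.45 TPM in siMAD2L1, against 11.5, 11.8 and 8.43 TPM in siControl (log2 fold change -0.40, SE 0.155, limma adjusted p = 0.147). IRF9, its DNA-binding partner, measured 29.9, 31.9 and 30.0 TPM in siMAD2L1, against 28.5, 23.0 and 24.9 TPM in siControl (log2 fold change 0.26, SE 0.108, limma adjusted p = 0.170). IRF7, the factor that amplifies type I interferon genes, measured 7.37, 7.45 and 7.75 TPM in siMAD2L1, against 6.83, 5.59 and 6.39 TPM in siControl (log2 fold change 0.23, SE 0.138, limma adjusted p = 0.330). Each of these had groups that did not overlap, lower in siMAD2L1 for STAT2 and higher for IRF9 and IRF7. The whole longest coding transcript of IRF9 is also contained in transcripts of the readthrough gene AL136295.5, so its reads cannot be assigned to IRF9 alone. IRF2 had a log2 fold change of 0.01 (95% interval -0.40 to 0.42).

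**Figure D3:**
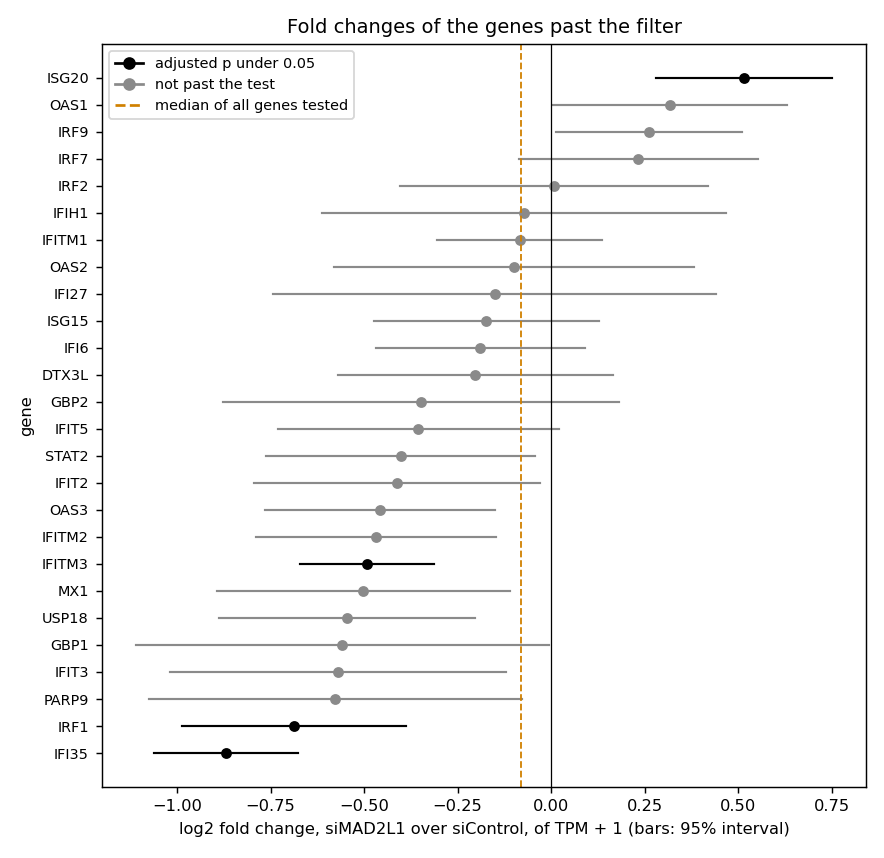
Log2 fold changes of TPM + 1, siMAD2L1 over siControl, with 95% intervals for the 26 genes tested; black marks an adjusted p under 0.05, grey the rest, and the dashed line the median of all genes tested (-0.08). ISG20 stands at the top with 0.52, IRF1 and IFI35 at the bottom with -0.69 and -0.87, and most grey genes lie below 0.

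The 3 siMAD2L1 libraries differed in how far the ISGs, and all genes tested, lay from the controls. The median shift of the 26 genes from the siControl mean was -0.19 in siMAD2L1 replicate 1, -0.36 in replicate 2 and -0.36 in replicate 3, on the log2(TPM + 1) scale. The median shift of all genes tested was 0.02, -0.15 and -0.12 in the same libraries, so replicate 1 lay highest of the 3 over all genes too. Replicate 1, which kept the most MAD2L1 mRNA, was the highest of the 3 siMAD2L1 libraries at 14 of the 26 genes and the lowest at 10. A relation of the ISGs to the remaining MAD2L1 mRNA was not tested. Below all siControl libraries lay 14, 18 and 17 of the 26 genes in replicates 1, 2 and 3, and above all of them lay 4, 5 and 7. The same counts were not taken over all genes tested, so these describe the libraries and show nothing particular to the ISGs. Without replicate 1, 7 ISGs were called lower and 1 higher, against 11.5% and 4.84% of all genes (16.4% in either direction); the additions to those named above were IFIT3, IFIT5, USP18 and GBP1. With limma's library weights 14 were called lower and 1 higher, against 22.6% and 10.2% of all genes (32.9% in either direction).

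**Figure D4:**
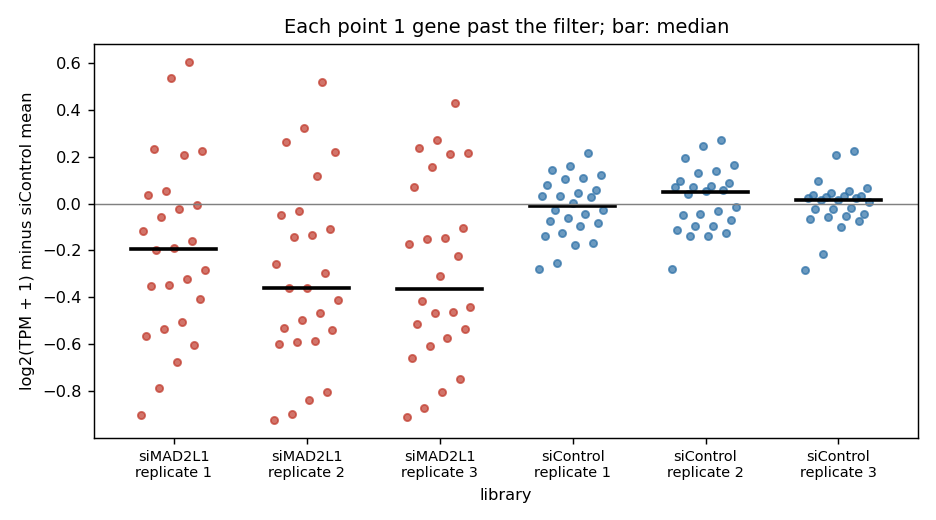
Difference of log2(TPM + 1) from the siControl mean for the 26 genes tested, 1 point a gene, in each siMAD2L1 library and each siControl library; bars are medians. The medians are -0.19, -0.36 and -0.36 in siMAD2L1 replicates 1, 2 and 3 and lie within 0.05 of 0 in siControl.

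The summed TPM of all 39 ISGs was 1103, 1215 and 1180 in siMAD2L1, against 1500.3, 1639 and 1512 in siControl. IFITM3 made up most of each sum. Without it the sums were 467, 490 and 478 TPM in siMAD2L1, against 563, 606 and 580.1 TPM in siControl, and the groups did not overlap. The largest gene left in these sums was IFITM2, at 114, 152 and 132 TPM in siMAD2L1 and 162, 216 and 173 TPM in siControl. A sum is led by its most abundant genes, and the sums were not tested. Summed IFIT values were 39.2, 26.8 and 28.4 TPM in siMAD2L1 and 45.7, 43.9 and 43.1 TPM in siControl. Summed oligoadenylate synthetase values overlapped, at 25.6, 22.8 and 22.8 TPM in siMAD2L1 and 23.8, 25.6 and 23.2 TPM in siControl.

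The rest of the pathway was read from 6 further lists of 112 genes, of which 72 were tested, 2 were called higher and 7 lower, beside 3.55% and 6.23% of all genes tested. The median log2 fold change of the 72 was -0.14, against -0.08 over all genes tested. The interferon genes were near silent: 21 of 22 interferon genes, IFNB1 and IFNG among them, were listed at 0 in all 6 libraries, and IFNL1 was listed at 0 in all but siControl replicate 1, at 0.132 TPM. All 6 receptor genes were expressed and none passed. IFNGR2 measured 62.2, 56.8 and 52.8 TPM in siMAD2L1, against 57.9, 61.5 and 57.9 TPM in siControl, and IFNAR2 36.9, 27.9 and 28.3 TPM in siMAD2L1, against 35.8, 32.6 and 30.1 TPM in siControl. Their log2 fold changes were -0.05 (95% interval -0.26 to 0.16) and -0.09 (-0.40 to 0.22).

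Of 10 kinases and STATs, 8 were tested, 2 fell and none rose, beside 6.23% and 3.55% of all genes tested. TYK2 was 1 of the 2, and the other is counted but not reported here by name. TYK2, a kinase of the type I receptor, measured 18.8, 20.2 and 22.3 TPM in siMAD2L1, against 29.6, 34.9 and 39.2 TPM in siControl (log2 fold change -0.72, SE 0.129, limma adjusted p = 0.0149), and fell. Its groups did not overlap. TYK2 lost its call without siControl replicate 2 or 3 (adjusted p = 0.0651 and 0.0698). JAK1, the kinase shared by the receptors, had a log2 fold change of -0.54 and did not pass (limma adjusted p = 0.0853).

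Of 12 inhibitors of the receptors and STATs, 11 were tested, 1 fell and 1 rose, beside 6.23% and 3.55% of all genes tested. SOCS3, an inhibitor that STATs themselves induce, measured 16.9, 17.6 and 17.4 TPM in siMAD2L1, against 24.0, 24.0 and 25.3 TPM in siControl (log2 fold change -0.48, SE 0.0949, limma adjusted p = 0.0217). PIAS4, a SUMO ligase that restrains STAT proteins, measured 27.6, 34.0 and 31.6 TPM in siMAD2L1, against 18.1, 22.2 and 22.2 TPM in siControl (log2 fold change 0.55, SE 0.126, limma adjusted p = 0.0336). Of 10 other IRFs and partners, 6 were tested, 1 rose and none fell, beside 3.55% and 6.23% of all genes tested. The gene that rose was IRF2BPL, a relative of the IRF2-binding proteins. IRF2BPL measured 16.3, 15.4 and 15.2 TPM in siMAD2L1 and 9.33, 11.0 and 9.68 TPM in siControl (log2 fold change 0.60, SE 0.118, limma adjusted p = 0.0206). The groups of all 3 genes were apart, as were those of 32.8% of all genes tested. Each lost its call in fits with 1 library left out, at adjusted p up to 0.101 for SOCS3, 0.132 for PIAS4 and 0.103 for IRF2BPL. SOCS3 also lost its call with quantile normalization (0.0553) and with a length trend removed (0.0575). PIAS4 also lost its call without a filter (0.0792) and without an intensity trend (0.0629). SOCS3 and IRF2BPL were not called in the fit with a replicate block.

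Of 52 further ISGs, 41 were tested, 4 fell and none rose, beside 6.23% and 3.55% of all genes tested. The list median was -0.19, against -0.08 over all genes tested. APOL2 measured 82.9, 72.9 and 80.6 TPM in siMAD2L1, against 118, 136 and 126 TPM in siControl (log2 fold change -0.67, SE 0.0891, limma adjusted p = 0.00533), and kept its call in all 19 alternatives. TRIM14, an adaptor in antiviral signalling, measured 6.18, 6.40 and 6.44 TPM in siMAD2L1, against 10.1, 11.1 and 9.36 TPM in siControl (log2 fold change -0.61, adjusted p = 0.0274). RNF213, a large ubiquitin ligase, measured 60.4, 48.4 and 53.6 TPM in siMAD2L1, against 79.1, 84.4 and 75.9 TPM in siControl (-0.56, adjusted p = 0.0161). ADAR, which edits double-stranded RNA, measured 54.7, 44.5 and 46.8 TPM in siMAD2L1, against 68.6, 75.6 and 61.4 TPM in siControl (-0.49, adjusted p = 0.0374). The groups of these 4 genes did not overlap, nor did those of 32.8% of all genes tested. TRIM14, RNF213 and ADAR lost their calls in fits with 1 library left out, with limma adjusted p up to 0.120, 0.0779 and 0.136 without siControl replicate 1. TRIM14 and ADAR also lost theirs without a filter (0.0533 and 0.0917), TRIM14 with quantile normalization (0.0585) and ADAR without an intensity trend (0.0810). Neither TRIM14 nor ADAR was called in the fit with a replicate block.

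**Figure D5:**
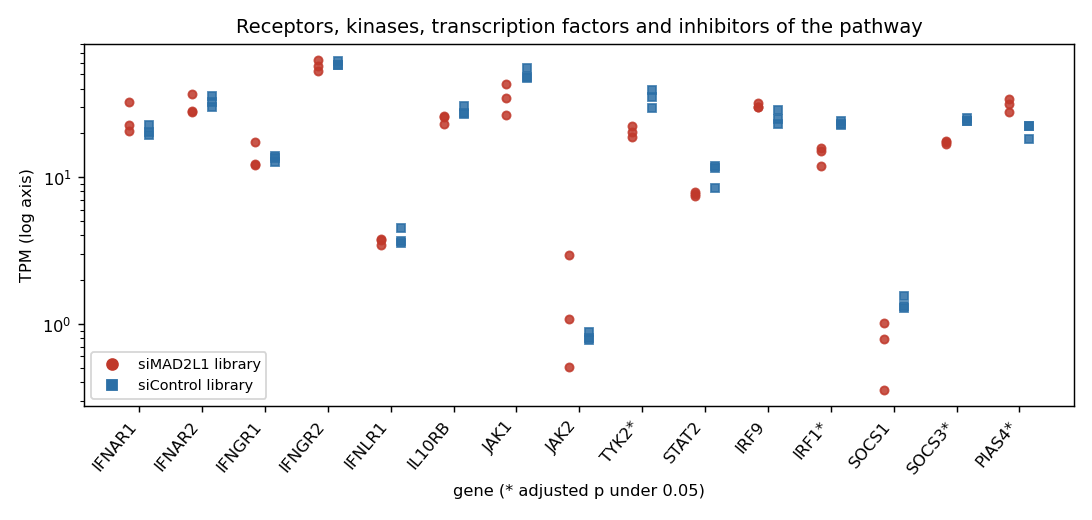
TPM on a log axis of receptor, kinase, STAT, IRF and inhibitor genes of the interferon pathway in each library, siMAD2L1 left of siControl; asterisks mark an adjusted p under 0.05. Of the receptor genes all but IL10RB overlap between groups. JAK1, TYK2, STAT2, IRF1, SOCS1 and SOCS3 are lower and IRF9 and PIAS4 are higher in all siMAD2L1 libraries.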

How the data were processed

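TPM values of 60589 genes in 6 libraries were deposited by the authors as 1 table. The submitters' processing notes name fastp, HISAT2, DESeq2 1.16.1 and hg38. The counter, the annotation and the strand setting are not stated in those notes or in the labels. For 6 of the 39 ISGs, ISG20 among them, the gene identifier joins the number of an assembled locus (MSTRG) to an Ensembl gene. The same holds for TYK2, APOL2, RNF213, ADAR, PIAS4 and IRF2BPL. Which transcripts such a locus holds is not stated, so values of these genes may include others. Libraries were grouped by title, and columns were matched to titles by treatment and number; the treatment field names MAD2L2 and MAD2L3 for siMAD2L1 replicates 2 and 3. The log2 of TPM + 1 was taken for the 14790 genes whose mean TPM reached 1, and limma 3.58.1 with an intensity trend (R 4.3.3) compared siMAD2L1 with siControl without covariates. P-values were adjusted by Benjamini-Hochberg over all genes tested. On this scale changes at low TPM are understated. The fit was tested on simulated data. Gene positions and transcripts came from GENCODE 29 and promoter windows from RefSeq (GRCh38.p14), read with Python 3.11.15. In the symbol list RIGI was matched by identifier.

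The members and lists were chosen with earlier results of these data known. Genes named with all values are the members called, those with groups apart, the most abundant of each role class, and up to 4 called genes of each pathway list or the 2 most abundant. Alternatives comprised a pseudocount of 0.1 or 0.5, removal of the filter or its rise to 5 TPM, 5 other scalings, 3 other limma settings, a replicate block and each library left out. Depth is unknown, so no counting interval is given for TPM. Some genes of the lists are counted but not reported here by name.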

Additional observations from a re-analysis of the deposited data

How the results depend on the processing

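IFI35, IRF1, IFITM3 and ISG20 kept their direction in all 19 alternatives, and IFI35 also its call. The ISGs called higher numbered 0 to 1 and those called lower 1 to 7 with 1 library left out; over all genes 138 to 716 were called higher and 188 to 1706 lower, and over the pathway lists 0 to 2 higher and 1 to 12 lower. The log2 fold change of MAD2L1 was -2.61 to -1.80 in these fits. The ISGs called lower were 5 after rescaling to protein-coding genes and 14 with library weights. After that rescaling all genes called were 526 higher and 1028 lower, against 525 and 921 before it. With library weights all genes called were 1514 higher and 3346 lower, and pathway genes 6 and 18. Without a filter all genes called were 267 and 460, pathway genes 1 and 4, and the ISG median -0.17. Without an intensity trend 297 genes and 1 pathway gene were called higher, and with a length trend removed 852 genes were. The median of all genes was -0.08, and -0.13 without mitochondrial and the 20 highest genes. No paired effect was taken from the replicate block: deviations of same-numbered libraries correlated at 0.02, 0.01 and 0.06, and not every library correlated best with its own number. With the block 336 genes were called higher and 532 lower, and pathway genes 1 and 3; IFITM2 passed (adjusted p = 0.0281). In the 100 bases before the start an ISRE lay in 40% of the ISG promoters and 1.202% of all, a GAS in 13.3% and 2.31%.

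Of the single genes, those that changed sign were uncalled in all fits. Without mitochondrial and the 20 highest genes IRF2 was -0.0367, and over protein-coding genes -0.0009. With library weights IRF2 was -0.0432, IFIH1 0.1476, IFITM1 0.0113 and IFI27 0.1851. With quantile normalization IFIH1 was 0.0809 and OAS2 0.0703. With a length trend removed IFITM1 was 0.0488, IFNGR2 0.0365 and MAD2L2 0.029, and with upper-quartile scaling IFNGR2 was 0.0019. With 1 library left out IRF2 lay between -0.118 and 0.143, IFIH1 between -0.2157 and 0.1243, IFI27 between -0.3337 and 0.1667, IFNGR2 between -0.1073 and 0.0083 and MAD2L2 between -0.1467 and 0.0121. The cause was not tested. The unknown depth limits what can be said of genes under 1 TPM.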
